A study of Auxenochlorella pyrenoidosa with 18 samples.

Results

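Some genes of Auxenochlorella pyrenoidosa, a unicellular green alga studied here as strain FACHB-9, were predicted to have more than 1 transcript. These genes were chosen by structure alone, as gene identifiers with at least 2 transcripts in the deposited gene models, and no measured value entered the choice. There were 162 of them among 10284 genes (1.58%, 95% Wilson interval 1.35 to 1.83%), with 329 transcripts in all. Of these genes, 157 had 2 transcripts and 5 had 3. The other 10122 genes had a single transcript.

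The series holds 18 RNA-seq libraries of whole cells in 6 groups of 3: heterotrophy at 0, 24 and 72 h, on glucose with urea as the nitrogen source, and phototrophy at 2, 8 and 24 h, in cultures that had used up their glucose and were diluted and put in light. All groups are of strain FACHB-9. Library values and depths were not analysed here, so no transcript was compared between groups. The models have AUGUSTUS, which predicts gene structures, as their source, and its evidence is not stated, so each transcript is a prediction; whether reads were spliced that way was not tested. Genome sequence was not used here, and the models carry no gene names, so the genes are called by their identifiers and no function is given.

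Most genes of green algae are split into exons, which are kept in the messenger RNA, and introns, which the spliceosome cuts out between a 5' splice site, or donor, and a 3' splice site, or acceptor. Alternative splicing gives more than 1 messenger from a gene by moving a splice site, leaving out an exon or leaving in an intron. In land plants retained introns are known as a frequent kind, whereas skipped exons are the frequent kind in animals. A change whose length is a multiple of 3 bases adds or removes whole codons, and any other length shifts the reading frame of what follows.

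The 162 genes differed between their transcripts mainly at splice sites and at transcript ends, and retained introns were few. Comparing the exons of every pair of transcripts of a gene gave 199 distinct differences, with 1 difference in 133 genes, 2 in 23, 3 in 5 and 5 in g6821. Another acceptor was used in 56 (28.1%, 95% Wilson interval 22.4 to 34.8%) and another donor in 36 (18.1%, 13.4 to 24.0%). Exons were skipped in 25 (12.6%, 8.66 to 17.9%), and an intron was retained in 8 (4.02%, 2.05 to 7.73%). Transcript ends differed in 59 (29.6%, 23.7 to 36.3%). The remaining 15 (7.54%, 4.62 to 12.1%) were 9 complex differences, 2 introns with both sites moved, 2 pairs of mutually exclusive exons and 2 pairs of transcripts with no common span. The intervals count differences as independent and cover counting only.

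**Figure D1:**
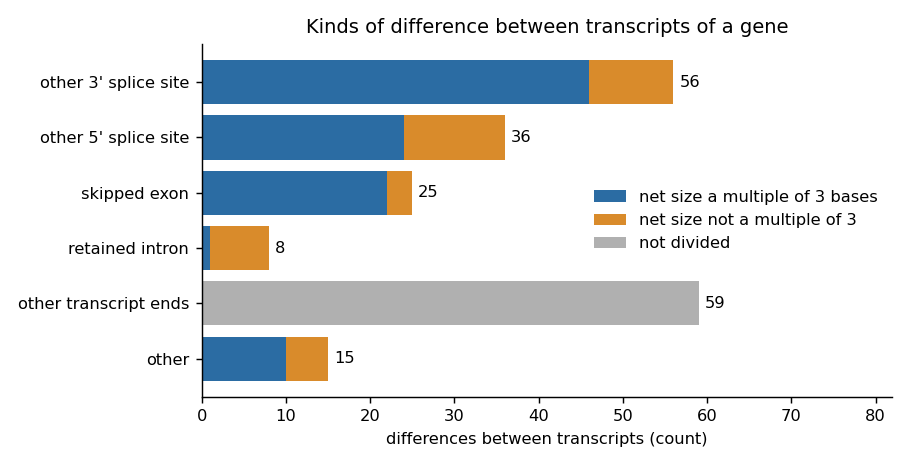
Number of differences between transcripts of 1 gene by kind, for 199 differences in 162 genes. Bars are divided by whether the net number of added or removed bases is a multiple of 3, except for transcript ends, which are drawn undivided. The first part held 46 of 56 other 3' splice sites, 22 of 25 skipped exons and 1 of 8 retained introns. For the retained introns the 95% Wilson interval is 2.24 to 47.1%. It includes the 33.1% found for coding introns of single-transcript genes.

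Every gene on the list differed in its coding sequence. None of the 162 genes had transcripts that differed in untranslated sequence alone. Whether the predictor lists a second transcript only where the coding sequence differs is not stated and was not tested. Of the 199 differences, 116 lay wholly in coding sequence, 71 in part and 12 in untranslated sequence of genes that also differed in coding sequence. The start codon and the stop codon were both shared in 98 of 172 transcript pairs (57.0%, 95% Wilson interval 49.5 to 64.1%). A further 34 pairs shared only the start codon, 37 only the stop codon and 3 neither. Where a model lacked a start or stop codon, the end of its coding sequence was used in its place. Among the 166 pairs of complete transcripts, 93 shared both codons (56.0%, 48.4 to 63.4%).

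In these models, nearly all coding bases common to a pair were read in the same frame. How transcripts were assigned to a gene is not stated, and whether that assignment itself requires a common frame was not tested. Of the 170 pairs with common coding bases, 152 read all of them in the same frame (89.4%, 95% Wilson interval 83.9 to 93.2%), and 99.5% of the 262722 common coding bases, summed over pairs, were read in the same frame. In the other 18 pairs between 2 and 419 bases were read in different frames, with a median of 30.5. The coding lengths of all 172 pairs differed by a multiple of 3, but for the 166 pairs of complete transcripts this follows from the models, since every complete transcript had a coding length that is a multiple of 3.

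A sole coding difference between complete transcripts that share both ends has to be a multiple of 3 for the same reason, and other lengths need another start, another stop or a second difference that restores the frame. Among moved sites, skipped exons and retained introns that lay wholly in coding sequence, 87 of 104 were a multiple of 3 long (83.7%, 95% Wilson interval 75.4 to 89.5%). Of the 21 that reached into or lay in untranslated sequence, 6 were (28.6%). Over all 125, coding or not, 82 of 91 were a multiple of 3 long in genes with a single difference (90.1%, 82.3 to 94.7%). In genes with several differences 11 of 34 were (32.4%, 19.1 to 49.2%). Of the 17 coding differences of other lengths, 15 lay in pairs with another start or stop codon, and the other 2 were in g6776 and g8728. The predictor builds open reading frames, so these shares describe its models, and its part in them was not tested.

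Moved acceptors were mostly moved by a few bases. The distance between the acceptors had a median of 12 bases and a range of 3 to 204. A distance of exactly 3 bases, a single codon, was the most frequent, in 14 of 56 genes. Distances of 6, 9 and 12 bases were found in 4, 5 and 4 genes, and 29 of 56 (51.8%, 95% Wilson interval 39.0 to 64.3%) were at most 12 bases. Closely spaced acceptors, known as tandem acceptors, are described in animals and plants. All 14 sites with a 3-base distance lay in coding sequence, with between 1.21 and 76.9% of the coding sequence upstream.

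Gene g17 (scaffold00009, bases 31471 to 34580, minus strand) had 6 exons in both transcripts and differed by bases 32699 to 32701, which gave coding lengths of 1143 and 1140 bases. Its transcripts had AUGUSTUS scores of 0.39 and 0.31, a number the predictor writes for each model. In g151 (scaffold00012, bases 672419 to 683583, plus strand) the 3 bases were 677185 to 677187, in coding sequences of 4026 and 4023 bases. Over the 14 genes the transcript with the extra codon had the higher score in 8, the lower in 5 and the same in 1.

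The longest acceptor distances came with changed coding ends. They were 204 bases in g10237 (scaffold01332, bases 350016 to 353172), 185 in g4642 (scaffold00629, bases 331815 to 334952) and 167 in g3194 (scaffold00366, bases 2378935 to 2382049). The start codon differed in g10237, with coding lengths of 879 and 537 bases, and the stop codon differed in g4642 and g3194.

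Donors were moved over longer distances. The median was 50 bases with a range of 3 to 516, 8 of 36 distances were at most 12 bases (22.2%, 95% Wilson interval 11.7 to 38.1%), and 1 was of 3 bases, in g9358 (scaffold01211, bases 1516134 to 1516136). The next shortest distance, 6 bases, occurred in g736 (scaffold00064, bases 160701 to 160706) and g5409. The longest, 516 bases in g10217 (scaffold01332, bases 250705 to 251220), took 172 codons out of a coding sequence of 2217 bases and left both ends of the protein in place. A donor 129 bases away in g1137 (scaffold00092, bases 346493 to 346621) likewise kept the frame. Gene g87 (scaffold00012) had a donor moved by 180 bases and another by 48, and its transcripts began at different start codons. Within coding sequence 21 of 29 donor distances were a multiple of 3, and 44 of 49 acceptor distances were.

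**Figure D2:**
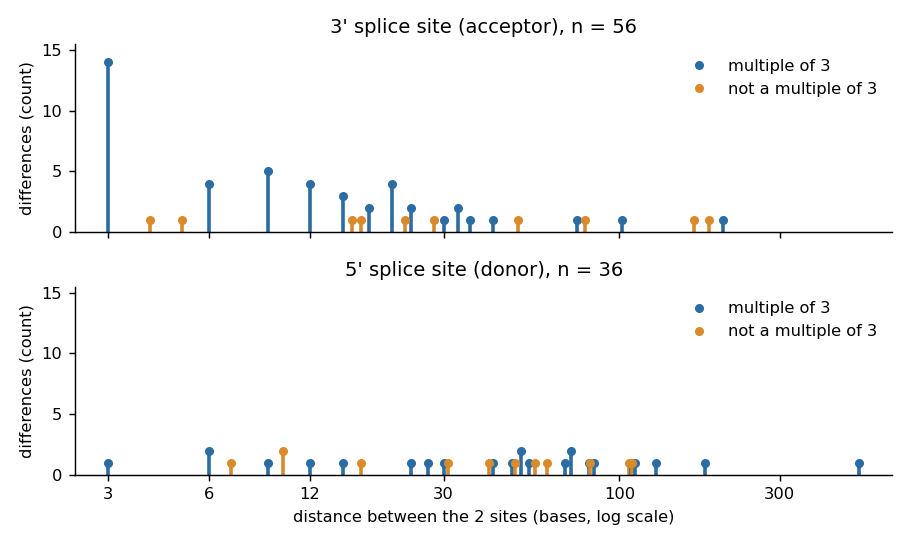
Distance between the alternative sites of an intron in bases, on a log axis, for 56 acceptors (top) and 36 donors (bottom); the height of a point is the number of differences with that distance. Acceptors peak at 3 bases with 14 differences, and donors show no such peak and reach 516 bases.

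In their shorter form, introns with a moved site were close in length to other introns. The shorter form had a median of 208.5 bases for acceptors and 191 bases for donors, where the medians of the other introns of the same genes were 219 and 218 bases. It was longer than the median of its gene's other introns in 25 of 56 and in 13 of 36 differences. The longer form, which adds the distance between the sites, was not compared, so these counts hold for the shorter form only.

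Skipped exons were short, and those within coding sequence were a multiple of 3 long in all genes except g855. A single exon was skipped in 24 genes, and 2 neighbouring exons of 96 bases together in g9084. Of the 23 differences of this kind that lay wholly in coding sequence, 22 were a multiple of 3 long (95.7%, 95% Wilson interval 79.0 to 99.2%). A sole coding difference between complete transcripts that share both ends has to be a multiple of 3, as stated above. This share is therefore partly set by the models. The exon of g855 had 31 bases, and its transcripts also differed in start codon. Internal coding exons of the single-transcript genes, whose length no second transcript constrains, were a multiple of 3 long in 38.4% (38.0 to 38.7%, n = 73197). The single skipped exons had a median length of 72.5 bases, against a median of 107 bases and quartiles of 78 and 150 for internal coding exons of the single-transcript genes.

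The longest skipped exon, 276 bases in g5205 (scaffold00711, bases 245008 to 245283), removed 92 codons from a coding sequence of 708 bases. The included and the skipped form had scores of 0.46 and 0.43. In g8247 (scaffold01136, bases 494789 to 494998) the exon had 210 bases. In g9647 (scaffold01246, bases 653522 to 653693) it had 172 bases, of which 7 were coding. The shortest exon had 12 bases, in g6360 (scaffold00902, bases 714792 to 714803), followed by 27 bases in g5187 (scaffold00711, bases 140998 to 141024); these are also the skipped exons of 30 bases or less. Introns beside a skipped exon had a median of 216 bases (n = 48). The mean of both was longer than the median of the other introns of the gene in 11 of 24 genes.

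Retained introns were rare, and 7 of the 8 were not a multiple of 3 long. All 8 lay in 6 genes, g5409, g6762, g8105, g9571, g9705 and g9727, and each of these genes had further differences. The retained introns measured 43 to 154 bases with a median of 113, and 7 of the 8 were shorter than the median of the other introns of their gene. Only the 105 bases in g6762 (scaffold00992, bases 343683 to 343787), which were untranslated, made a multiple of 3. For this 1 of 8 (12.5%) the 95% Wilson interval was 2.24 to 47.1%. That interval includes the 33.1% of coding introns of the single-transcript genes that were a multiple of 3 long (n = 83178). In g5409 (scaffold00760, bases 111550 to 111683) the intron of 134 bases was followed by a change of frame over 300 common coding bases and by another stop codon. The shortest, 43 bases in g9727 (scaffold01246, bases 1034754 to 1034796), lay 2 bases from another retained intron of 121 bases, and each transcript of g9727 retained the one that the other removed. The longest, 154 bases in g8105 (scaffold01094, bases 322806 to 322959), and the 152 bases in g6762 (scaffold00992, bases 343852 to 344003) held 86 and 20 coding bases, and both came with a shorter 3' end and another stop codon. In g9571 (scaffold01246, bases 265640 to 265712) all 73 bases were coding. In the 113 genes whose transcripts all had a mean coding segment score of at least 0.9, 0 of 132 differences were retained introns, and with coding segments in place of exons 3 of 189 were.

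Coding lengths differed most between transcripts with different start or stop codons. Of the differences at transcript ends, 31 were at the 5' end, in 30 genes, and 28 at the 3' end, in 28 genes. In pairs with a common start codon and another stop codon, the shorter coding sequence had a median of 79.1% of the length of the longer (quartiles 62.9 and 94.8%, n = 34 pairs). With a common stop codon and another start it was 76.8% (quartiles 53.2 and 86.0%, n = 37). With both ends in common it was 98.1% (quartiles 96.1 and 99.3%, n = 98).

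**Figure D3:**
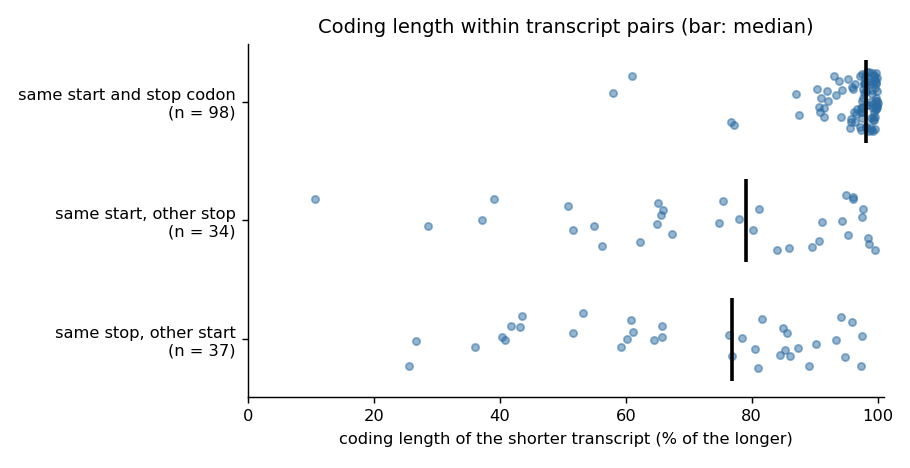
Coding length of the shorter transcript as a percentage of the longer, 1 point for each pair, for pairs that share both codons, the start codon only or the stop codon only; vertical bars are medians of 98.1, 79.1 and 76.8%. Pairs that share both ends have a lower quartile of 96.1%, and pairs with another stop codon spread down to 10.6%.

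Some short transcripts ended inside an intron of the long one. In 13 genes the last exon of the short transcript ran past the donor of the long one into the intron. Its coding sequence had 10.6 to 94.3% of the length of the longer, with a median of 56.3%. The stop codon lay in that intron in all 13, and in 7 of them (g845, g1377, g6271, g7252, g7319, g8817 and g9550) it took up bases 2 to 4 of the intron. These 7 short proteins thus ended right after the last shared exon, with 4 coding bases of their own. The intron concerned had a median of 217 bases and was longer than the median of the gene's other introns in 8 of 13. The short form had the higher score in 12 of the 13, and in g1377 both had 0.05. The 7 genes were picked out after their values were seen.

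Gene g845 (scaffold00066, bases 313308 to 325919, plus strand) showed the largest change in coding length, with 5 exons and 543 coding bases in the short transcript and 30 exons and 5109 coding bases in the long one. AUGUSTUS gave the short form a score of 0.3 and the long form 0.01. In g8817 (scaffold01204, bases 587741 to 595994, minus strand) the transcripts had 8 exons with 1962 coding bases and 14 exons with 5289 coding bases.

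At the 5' end, 8 first exons began inside an intron of the other transcript, 10 pairs had separate first exons, 8 short transcripts began inside a later exon, and 5 pairs differed within the same first exon. Of the 8 that began in an intron, 6 had their start codon in an exon of the longer transcript. By bases, the largest 5' differences were in g358 and g4604. Gene g358 (scaffold00012, bases 1893032 to 1898875, minus strand) had transcripts of 11 and 6 exons with 3066 and 783 coding bases, all of the shorter coding sequence being in frame with the longer. Gene g4604 (scaffold00629, bases 123316 to 128650, plus strand) had 8 exons with 3198 coding bases in a transcript scored 0.05, and a single exon with 1380 coding bases in a transcript scored 0.31. The smallest, in g4991 (scaffold00661, bases 315107 to 317350), was of 10 untranslated bases beside a donor moved by 72 bases, and the coding sequences of 414 and 249 bases had different start codons.

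**Figure D4:**
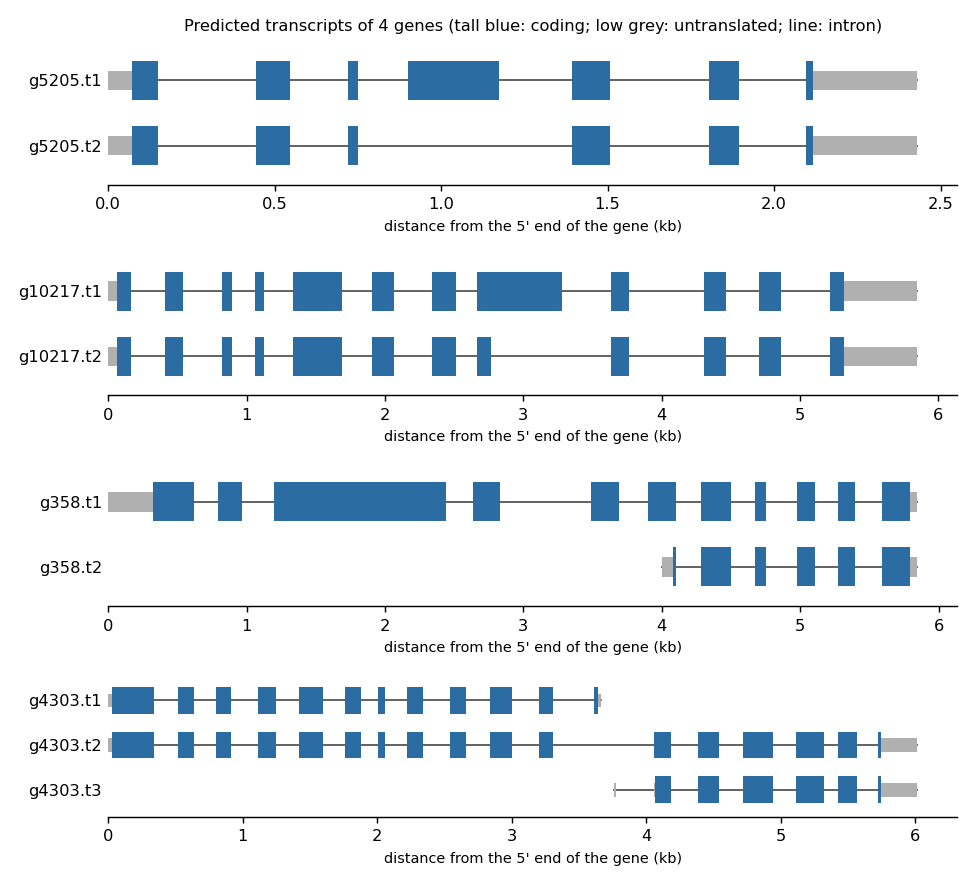
Predicted transcripts of g5205 (skipped exon), g10217 (moved donor), g358 (short form that begins inside the gene) and g4303 (3 transcripts), drawn to scale in kb from the 5' end of each gene; tall blue boxes are coding, low grey boxes untranslated and lines introns. The long transcript g4303.t2 spans both short ones, which do not overlap.

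The genes with 3 transcripts fell into 3 forms. In g4303 (scaffold00557, bases 655152 to 661164, plus strand) a transcript of 17 exons with 2412 coding bases spanned a front transcript of 12 exons with 1566 coding bases and a rear transcript of 7 exons with 867 coding bases, and the short ones had no base in common. The front form shared its start codon and 1536 of its 1566 coding bases with the long one. In g6821 (scaffold00992, bases 705026 to 709584, minus strand) a long transcript of 8 exons likewise overlapped front and rear transcripts of 3 and 5 exons that had no base in common. Its front form differed more, sharing neither start nor stop codon and only 148 of its 450 coding bases with the long one, beside a donor moved by 31 bases and a 5' end 30 bases further out. The long form had the highest score in g4303, at 0.51 beside 0.31 and 0.33, and the lowest in g6821, at 0.03 beside 0.17 and 0.13. Whether each locus holds 1 gene or 2 was not tested.

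Genes g3658 (scaffold00479, bases 13046 to 18728, plus strand) and g9251 (scaffold01211, bases 945926 to 953620, plus strand) offered a choice between neighbouring exons. Each had transcripts with either exon and a transcript with both. The mutually exclusive exons had 62 and 65 bases in g3658 and 106 bases each in g9251, where the coding length stayed at 1923 bases with either exon. In the transcripts with both exons, the first of the pair had another donor, and the coding lengths were 1806 and 1971 bases. Gene g104 (scaffold00012, bases 388841 to 396274, minus strand) combined a skipped exon of 81 bases with an acceptor moved by 24 bases, which gave coding lengths of 2283, 2340 and 2364 bases in 3 of the 4 possible combinations.

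Frame shifts inside the coding sequence came back into frame in 3 genes. In g6776 (scaffold00992) a donor moved by 17 bases and a next intron with both sites moved, 88 bases in all, together made 105 bases, and 36 common bases between them were read in another frame. In g8728 (scaffold01204) a skipped exon beside a moved acceptor, 203 bases in all, and a second acceptor moved by 4 bases made 207 bases, with 39 common bases in another frame. In g116 (scaffold00012) a complex difference put 20 bases in another frame. These 3 pairs kept both start and stop codon. The other 15 pairs with bases in another frame had a different start codon in 6 and a different stop codon in 9, and the largest stretch, 419 bases, was in g9705 (scaffold01246). Gene g2473 (scaffold00269) had the other intron with both sites moved, which added 30 bases in frame, and the complex difference in g8324 (scaffold01136) added 57. In g9418 (scaffold01211) a complex difference of 253 bases was part coding, and its coding lengths were 1032 and 810 bases. Genes g116, g6776, g8728 and g9705, and g855 and g9084 with their skipped exons, were named after their values were seen.

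The listed genes had longer structures than the rest, in exon number rather than in intron length. Medians were 11 exons in the listed genes (95% order-statistic interval 10 to 12) and 8 in the single-transcript genes (7 to 8). Coding length had a median of 1482 bases (1260 to 1767) in the listed genes and 1035 bases (1015 to 1050) in the single-transcript genes, taking the longest coding sequence of each gene. The gene span had medians of 4474 bases (3824 to 5285) and 3020.5 bases (2974 to 3075), in the same order. The median coding intron of a gene was 203 bases (197 to 215.5) in the listed genes and 213 bases (211.5 to 214) in the single-transcript genes, so these intervals overlapped. No test was run between the lists. The longest of several coding sequences is here set beside a single one, and the span of a listed gene covers all its transcripts. With the first transcript listed, medians of the listed genes were 10 exons, 1404 coding bases, a span of 4140 bases and a coding intron of 208.25 bases.

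All transcripts had a start and a stop codon in 156 of the 162 listed genes (96.3%, 95% Wilson interval 92.2 to 98.3%), and 86.4% (85.7 to 87.1%) of the single-transcript genes were complete. Among complete models the medians were 11 exons and 1497 coding bases in the listed genes, and 8 exons and 1128 coding bases in the single-transcript genes.

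The share of genes with more than 1 transcript was higher in classes with more exons, though the intervals of neighbouring classes overlapped. It was 0.444% in genes of 1 to 3 exons (95% Wilson interval 0.190 to 1.04%), 0.692% at 4 to 5 exons, 1.55% at 6 to 8, 1.66% at 9 to 12, 2.78% at 13 to 20 and 2.92% (1.95 to 4.34%) at 21 or more. Counted per intron, the order was different: there were 2.87, 1.96, 2.62, 1.78, 1.90 and 1.06 listed genes per 1000 introns in the same classes, highest at 1 to 3 exons (5 genes) and lowest at 21 or more (23 genes), with no steady fall between. Within classes, median coding lengths were 1068 bases in the listed and 855 bases in the single-transcript genes at 6 to 8 exons, 1845 and 1887 bases at 13 to 20 exons, and 3057 and 3451.5 bases at 21 or more. At least 25 exons were found in 20 of the 162 genes, and in 455 of all 10284.

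**Figure D5:**
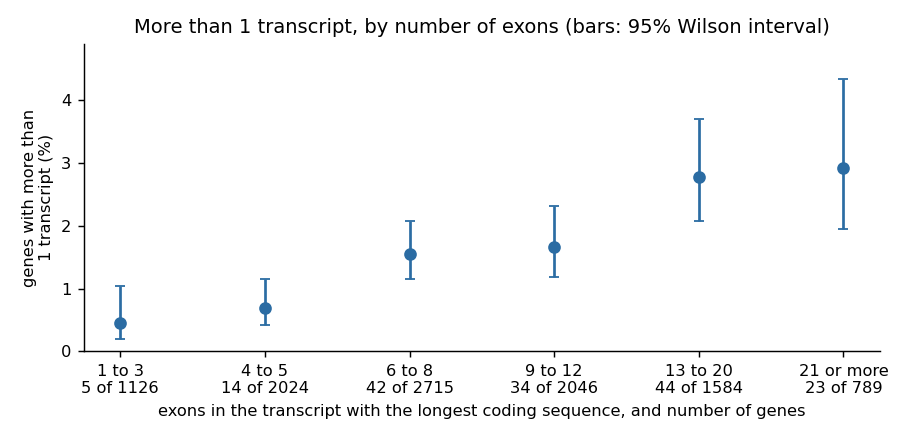
Percentage of genes with more than 1 predicted transcript by number of exons, with 95% Wilson intervals; the number of listed genes and of all genes stands under each class. The share is 0.444% at 1 to 3 exons and 2.92% at 21 or more.

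The listed genes lay on 49 of the 1231 scaffolds. On scaffolds with an annotated span of at least 500000 bases, 133 of 7270 genes were listed (1.83%, 95% Wilson interval 1.55 to 2.16%). With a span under 5000 bases, 4 of 1381 were (0.290%, 0.113 to 0.742%). Scaffold00012 held the most, 12 of its 474 genes (2.53%, 95% Wilson interval 1.45 to 4.37%), followed by scaffold01211 with 11 of 383 and scaffold01246 with 11 of 337 (3.26%, 1.83 to 5.75%). The minus strand carried 87 listed genes among 5161 (1.69%, 1.37 to 2.07%) and the plus strand 75 among 5123 (1.46%, 1.17 to 1.83%). Direct neighbours were both listed in 3 cases. Genes g3657 and g3658 on scaffold00479 lay 597 bases apart on the same strand, g4156 and g4157 on scaffold00542 lay 4957 bases apart, and g7319 and g7320 on scaffold01012 lay 366 bases apart, tail to tail. The transcripts of the neighbours differed in different ways, such as a skipped exon in g4156 and a 5' end in g4157.

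The score that AUGUSTUS wrote for a gene was the sum of the scores of its transcripts in all 10284 genes, within 0.011, so gene scores are not comparable between the lists. The best transcript of a listed gene had a median score of 0.12 (quartiles 0.06 and 0.23), and a single-transcript gene had a median of 0.11 (quartiles 0.05 and 0.23). From 1 to 3 exons up to 21 or more, medians of the best transcripts were 0.27, 0.155, 0.17, 0.105, 0.095 and 0.06. In the same classes, single-transcript genes had medians of 0.17, 0.15, 0.12, 0.09, 0.07 and 0.04. The best of several scores is here set beside a single score, and no test was run. The weakest transcript of a listed gene had a median of 0.07. Where transcript ends differed, the transcript with more of the differing bases had the higher score in 8 of 59 differences, the lower in 47 and the same in 4. Where they differed inside, apart from pairs with no common span, it was higher in 61 of 138, lower in 60 and equal in 17. Scores were lower at higher exon numbers in the single-transcript genes too, with a median of 0.17 at 1 to 3 exons and 0.04 at 21 or more, and the part of exon number in the order of scores was not tested. The highest pair of scores, 1 and 1, belonged to g2062 (scaffold00205, bases 1 to 3475), an incomplete model at the start of its scaffold with an acceptor moved by 102 bases. The lowest mean coding segment score among a gene's transcripts was above 1 in 2 genes, g5205 (1.99) and g9246 (1.89, scaffold01211). The transcripts of g9246 differed at the 5' end. This lowest mean need not belong to the transcript with the lowest transcript score. The lowest mean was exactly 1 in 12 genes, of which g621 (scaffold00047), g907 (scaffold00066) and g2062 come first by scaffold. Of these, g621 had a 3-base acceptor distance and g907 a 15-base donor distance.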

How the data were processed

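The deposited file holds gene models for the whole series and no values of single libraries. Its positions count from 1, and in the deposited lines for genes, transcripts, coding segments and introns the authors give a score whose scale is undescribed. AUGUSTUS stands as source in the file itself, with its version, settings, evidence and assembly not stated. TopHat 1.3.3 and Cufflinks appear in the submitters' processing notes, and their role in the models is not stated.

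The models were read with Python 3.11.15. Exons of each pair of transcripts of a gene were compared site by site, 5' to 3'. Splice sites not shared, between shared ones, made up 1 difference, and the same difference in several pairs of a gene counted once. The code returned the right kind and size in 2600 of 2600 simulated pairs, each with 1 difference of 12 kinds or with none. Pairs with several differences were not simulated. Nor were separate first or last exons, complex differences, introns with both sites moved or pairs with no common span. Reading frames came from the deposited phase of each coding segment. Intervals are 95% Wilson intervals, or binomial order-statistic intervals of medians (SciPy 1.17.1). They count genes as independent and cover counting only, not errors of assembly or prediction. No test between lists was run. Named were genes with at least 3 transcripts, the 3 largest and 2 smallest differences of each kind and the 5 largest coding differences. Also named were 5 genes by the lowest mean coding segment score among their transcripts, and listed neighbours. Ties went to the first by scaffold name and start; exceptions are stated. Alternatives were subsets of the genes, coding segments in place of exons, and other choices of transcript or pair. The list and its measures were chosen with earlier results of these data known.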

Additional observations from a re-analysis of the deposited data

How the results depend on the processing

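Of 87 values of 14 results under 10 alternatives, 82 stayed within the 95% interval of the value reported and 5 moved outside it. For the number of genes the limit was 1.5 times. Values that stayed include the shares of genes with a coding difference and of pairs differing by a multiple of 3. Both were 100%, which no subset of genes or pairs can change. Most alternatives kept most of the same genes. In the 113 genes in which every transcript had a mean coding segment score of at least 0.9, retained introns made up 0% of 132 differences and transcript ends 21.2%, and 68.6% of pairs shared both start and stop codon. With coding segments in place of exons, retained introns made up 1.59% and transcript ends 38.6% of 189 differences; by construction this setting leaves out untranslated exons and counts start and stop codons as ends. The cause of the other 3 moves was not tested. The number of genes ranged from 113 to 162. Segment scores above 1 occur in 34 listed and 7 single-transcript genes, so the score limit is not a probability. No paired analysis was possible because the models carry no values of single libraries.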

Other observations

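Coding and intron lines with a score above 1 were gathered in the listed genes, with 778 such lines in 34 of the 162 listed genes and 165 lines in 7 of the 10122 single-transcript genes. The kinds of difference were also counted by exon number. In the 19 genes with up to 5 exons, moved acceptors made up 10 of 20 differences (95% Wilson interval 29.9 to 70.1%), skipped exons 3 (15.0%, 5.24 to 36.0%) and transcript ends 5 (11.2 to 46.9%). In the 67 genes with at least 13 exons, moved acceptors made up 22 of 86 (25.6%, 95% Wilson interval 17.5 to 35.7%) and skipped exons 15 (17.4%, 10.9 to 26.8%). Transcript ends made up 18 of these 86 (20.9%, 13.7 to 30.7%). In the 76 genes of 6 to 12 exons, moved acceptors made up 24 of 93 differences (25.8%), skipped exons 7 (7.53%, 3.69 to 14.7%) and transcript ends 36 (38.7%, 29.4 to 48.9%). The 95% Wilson intervals of each of these 3 kinds overlapped between the classes, and no test was run between them. The share of the coding sequence upstream had a median of 42.8% for moved acceptors, 68.3% for moved donors and 88.2% for retained introns (n = 56, 36 and 8). Of these, 49, 29 and 3 lay wholly in coding sequence. A difference wholly in untranslated sequence before the start codon or after the stop codon stands at an end of this scale.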
